A study of Mus musculus with 4 samples.

Results

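The core genes of Notch signalling were followed by ribosome profiling in newborn mouse epidermis. They were the receptors Notch1, Notch2 and Notch3, the ligands Jag1, Jag2 and Dll1, the receptor-modifying enzyme Lfng, the nuclear factors Rbpj and Maml1, and the target Hes1. The genes were chosen by symbol, and 9 of these 10 were among the 10327 genes of the table. Rbpj, the DNA-binding partner of activated Notch, was not analysed here. The tested libraries were 2 from conditional knockout mice (cKO, K14Cre,Mettl14F/F) and the controls were 2 from heterozygous mice (Ctrl, K14Cre,Mettl14F/+), all from untreated epidermal keratinocytes at postnatal day 0. Both groups carried the same K14-driven Cre, which is active in basal keratinocytes and is inherited by their suprabasal progeny, so the controls lack 1 intact Mettl14 copy wherever Cre has acted. METTL14 is the RNA-binding partner of METTL3, and together they place the N6-methyladenosine (m6A) mark on mRNA.

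Notch receptors are cell-surface proteins that are activated by Jagged or Delta ligands on a neighbouring cell. Ligand pulling exposes the receptor to ADAM10 and then to gamma-secretase, and the freed intracellular domain enters the nucleus, joins RBPJ and a Mastermind coactivator, and switches on Hes and Hey repressors. In the epidermis this signal is known for committing basal cells to the spinous layer.

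The unit was CPM, a gene's footprint reads per 1000000 reads on the listed genes. Whole reads could be recovered from these values and totalled 542074 and 751948 in the cKO libraries, against 933574 and 624167 in the Ctrl libraries. Nothing in the labels states whether both libraries of a genotype are from different mice, and p-values therefore measure only the spread between these samples, which may be technical. A footprint level does not separate the amount of an mRNA from how densely ribosomes sit on it, and matched total RNA libraries were not analysed here. In bulk samples fewer cells of a type and less RNA per cell cannot be told apart either. Mettl14 had 9.22 and 5.32 CPM in cKO, from 5 and 4 reads, against 27.9 and 27.2 CPM in Ctrl, from 26 and 17 reads. The cKO values therefore lay under each Ctrl value, although Mettl14 did not pass over all genes (limma, Benjamini-Hochberg adjusted p = 0.122).

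The keratinocyte label was checked on marker genes. All 6 basal, 6 suprabasal and 7 granular keratinocyte markers were present, whereas 0 of 6 endothelial and 1 of 6 mural cell markers were in the table. Melanocyte (6 of 6), red blood cell (5 of 5) and immune markers (4 of 6) were present too. No listed gene was at 0 in any library, so an absent marker may still have had reads in some libraries. The suprabasal markers, led by the spinous keratins Krt1 and Krt10, summed to 194374 and 181576 CPM in cKO, against 134384 and 122238 CPM in Ctrl. The basal markers, led by Krt5 and Krt14, summed to 9406 and 10769 CPM in cKO, against 21187 and 19138 CPM in Ctrl. Fibroblast markers (8 of 8 present) summed to 1636 and 1108 CPM in cKO, against 4008 and 2438 CPM in Ctrl, and Col1a1 alone stood at 397 CPM in Ctrl 1 but at 25.6 CPM in Ctrl 2. The granular markers, led by Lor and Flg, summed to 11476 and 16275 CPM in cKO, against 7079 and 9594 CPM in Ctrl, and the hair follicle markers, led by Krt17 and Sox9, to 1079 and 1439 CPM in cKO, against 1900 and 2225 CPM in Ctrl. These 5 sums did not overlap between the groups, but not every single marker followed its sum. Among the basal markers 2 of 6 overlapped, with Krt14 1 of them, as did 1 of 6 hair follicle and 4 of 8 fibroblast markers. Of the 7 granular markers 6 had a positive log2 change, and that of Flg2 was -0.23. The sums of melanocyte markers (832 and 908 CPM in cKO, against 699 and 1359 CPM in Ctrl) and of immune markers (367 and 142 CPM in cKO, against 223 and 370 CPM in Ctrl) overlapped. Red blood cell markers stood at 526 CPM in cKO 1 and at 98.4 CPM in cKO 2, against 120 and 80.1 CPM in Ctrl. The part of layer composition, hair follicle or dermal cells in the Notch values was not tested.

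Sequences are shown first for the letters GGACT, the most typical form of the m6A consensus, in the coding sequences of 5 members, because the knockout removes an m6A writer. The matches nearest the 3′ end of the coding sequence whose 25-base window lies in 1 exon are given, 5′ to 3′ in the sense of the mRNA, on GRCm38 with GENCODE M21 exons. Capitals mark GGACT, searched on the sense strand only. Such windows of Jag1, Maml1 and Hes1 are not shown here, and the printed ones do not mark the genes that differed.

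Notch1, chr2:26460543-26460567, minus strand, exon 34 of 34: tgtcgcctgtGGACTccctcgagtc
Notch2, chr3:98142959-98142983, plus strand, exon 31 of 34: aagatgctgaGGACTcttctgccaa
Notch3, chr17:32122445-32122469, minus strand, exon 33 of 33: tGGACTctctGGACTcaccacggcc
Jag2, chr12:112909028-112909052, minus strand, exon 26 of 26: gtggagatggGGACTccccagaggc
Dll1, chr17:15368481-15368505, minus strand, exon 9 of 11: accccactgtGGACTataacctcgt

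Notch3 carried 9 GGACT matches in its coding sequence, Notch2 carried 8, Notch1 7, Jag1 4, Jag2 and Maml1 3 each, Dll1 2 and Hes1 1, while Lfng had 0. Per kilobase of coding sequence the members had a median of 0.980 matches, against 1.08 over 10322 genes, of which 78.3% held at least 1. The member with the highest density was Notch3, at 1.29 per kilobase, inside the interquartile range of all genes (0.458 to 1.73). These matches are letters only, and methylation was not measured.

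The promoter of Lfng is shown because Lfng had the most negative log2 change of the members and is known as a Notch target in the segmenting mouse embryo. Promoters of 8 of the 9 measured members were in the RefSeq set for GRCm38.p6, which covers 250 bases before to 50 bases after a start. The letters GTGGGAA, a common form of the RBPJ recognition sequence, were searched on both strands. They were present in the promoter of Lfng and in none of the other 8 promoters of the members (Dll1 has 2), and in 6.38% of all 32851 promoters. In the sequence below, at chr5:140607091-140607390 on the plus strand, capitals mark the match, whose first base lies at -109 from the start. The match overlaps the E-box letters CACGTG, which 7.15% of all promoters hold. It is a match of letters only, and RBPJ binding was not measured.

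Lfng promoter: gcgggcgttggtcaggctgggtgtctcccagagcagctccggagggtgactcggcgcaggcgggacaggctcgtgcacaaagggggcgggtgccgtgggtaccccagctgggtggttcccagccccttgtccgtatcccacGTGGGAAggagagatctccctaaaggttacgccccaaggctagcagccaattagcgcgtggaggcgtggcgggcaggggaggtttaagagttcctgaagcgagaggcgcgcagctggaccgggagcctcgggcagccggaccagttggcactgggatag

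Among the receptors, Notch2 and Notch3 were the members whose cKO values both exceeded each Ctrl value, while Notch1 overlapped between the groups. None of the 9 members passed limma over all genes in either direction, in a table where 0.368% of genes were called higher in cKO and 0.300% lower. At an unadjusted p under 0.05 there were 4 members (Notch2, Notch3, Jag2 and Lfng), of 1475 such genes in the table. On the recovered reads edgeR and DESeq2 also called 0 members, but DESeq2 gave no adjusted p for Dll1 and Maml1. The cKO values both exceeded each Ctrl value for 2 members, a pattern held by 11.1% of all genes. They were both under each Ctrl value for 3 members (Jag2, Dll1 and Lfng), where 34.1% of all genes did the same, a share close to that of the members.

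**Figure D1:**
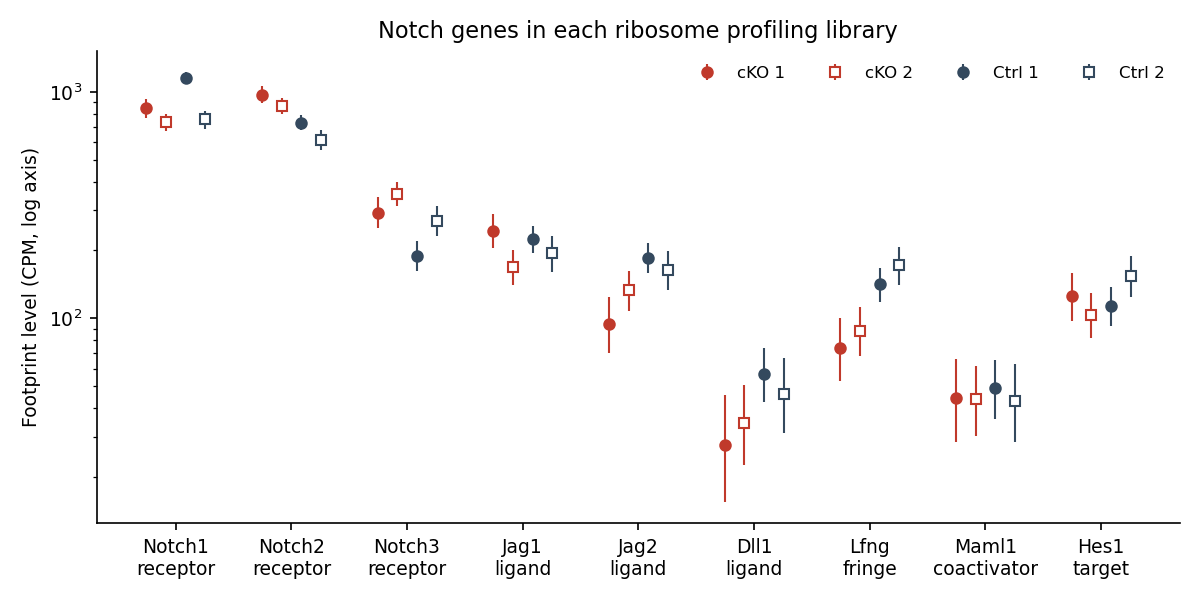
Footprint level in CPM (log axis) of the 9 measured Notch genes in cKO 1, cKO 2, Ctrl 1 and Ctrl 2, with exact 95% binomial intervals that cover counting error only. Notch2 and Notch3 lie higher in both cKO libraries, and Jag2, Dll1 and Lfng lie lower in both.

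Notch2 (ENSMUSG00000027878, GRCm38 chromosome 3, 98013527 to 98150361, plus strand) is a receptor found in keratinocytes beside Notch1. It had 972 and 868 CPM in cKO, from 527 and 653 reads, against 731 and 615 CPM in Ctrl, from 682 and 384 reads. Its lowest cKO library thus lay above its highest Ctrl library. The means were 920 ± 73.4 CPM in cKO and 673 ± 81.5 CPM in Ctrl (SD, n = 2 each). Its log2 change of 0.45 ± 0.20 (SE) on the log2(CPM + 1) scale had a 95% interval of 0.032 to 0.88 (limma adjusted p = 0.317). It was 0.33 without Ctrl 2, 0.37 without cKO 1 and 0.70 in edgeR with TMM and no filter.

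Notch3 (ENSMUSG00000038146, chromosome 17, 32120820 to 32166852, minus strand) is a receptor best known from mural cells of vessels and also made in the suprabasal epidermis. Levels were 293 and 354 CPM in cKO, against 189 and 269 CPM in Ctrl, so the groups did not overlap, but cKO 1 and Ctrl 2 lay close together. The log2 change was 0.51 ± 0.23 (SE; limma adjusted p = 0.317), and it was 0.26 without Ctrl 1 and 0.77 without Ctrl 2. Of the 6 listed mural cell markers only 1, Cspg4, was in the table, with a log2 change of -0.012. The part of mural cells in the Notch3 values was not tested.

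Notch1 (ENSMUSG00000026923, chromosome 2, 26457903 to 26516663, minus strand) is the receptor whose loss in mouse skin is known to disturb differentiation and hair follicles. It had 847 and 734 CPM in cKO, against 1151 and 756 CPM in Ctrl. Ctrl 1 stood apart, and cKO 1 lay above Ctrl 2. The log2 change of -0.24 ± 0.22 (SE; limma adjusted p = 0.652) was equal to the median of all genes (-0.245) to within 0.0021, and without Ctrl 1 it was 0.060.

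The make-up of the receptor pool does not depend on how libraries are scaled, and it was therefore read as shares of the 3 receptors' own reads. Notch1 held 40.1% of them in cKO 1 (exact binomial 95% interval 37.2 to 43.0%) and 37.5% in cKO 2 (35.0 to 40.1%), against 55.6% in Ctrl 1 (53.4 to 57.8%) and 46.1% in Ctrl 2 (43.0 to 49.2%). Notch2 held 46.0% and 44.4% in cKO, against 35.3% and 37.5% in Ctrl. Notch1 was thus the most read receptor in both Ctrl libraries and Notch2 in both cKO libraries, with 1.15 and 1.18 Notch2 reads per Notch1 read in cKO, against 0.634 and 0.814 in Ctrl. Notch3 held 13.9% and 18.1% in cKO, against 9.11% and 16.4% in Ctrl, and these shares overlapped. Exact permutation of 2 against 2 libraries cannot give a two-sided p under 0.333, and the shares were therefore not tested. The intervals cover counting error only. Notch2 by itself was higher in both cKO libraries, which enters its share and its ratio to Notch1. How many other gene pairs separate the groups in this way was not counted. The receptors together summed to 2112 and 1956 CPM in cKO, against 2071 and 1641 CPM in Ctrl, with overlap on the deposited scale. Unlike the shares, these sums depend on library scaling. The TMM factors were 0.919 and 0.915 in cKO, against 1.07 and 1.11 in Ctrl. Scaled by them, the receptor sums do not overlap and are higher in cKO.

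**Figure D2:**
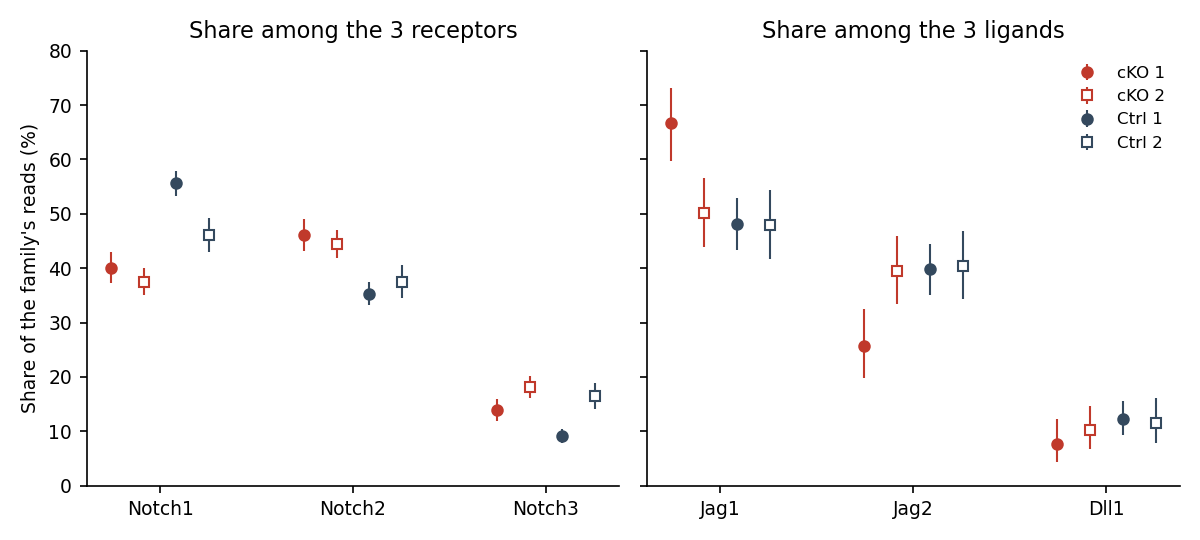
Share (%) of each receptor among the reads of the 3 receptors (left) and of each ligand among the reads of the 3 ligands (right), in cKO 1, cKO 2, Ctrl 1 and Ctrl 2, with exact 95% binomial intervals. Notch1 holds 40.1 and 37.5% in cKO, below 55.6 and 46.1% in Ctrl, and Jag1 is set apart in cKO 1 alone at 66.7%.

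Among the ligands, Jag2 and Dll1 had lower values in each cKO library than in either Ctrl library, and Jag1 overlapped. Jag2 (ENSMUSG00000002799, chromosome 12, 112907819 to 112929776, minus strand) is the Jagged ligand of basal keratinocytes in the mouse embryo. It had 94.1 and 133 CPM in cKO, from 51 and 100 reads, against 185 and 163 CPM in Ctrl, from 173 and 102 reads. Both cKO libraries were low, cKO 1 more so. The log2 change was -0.63 ± 0.25 (SE; 95% interval -1.15 to -0.11; limma adjusted p = 0.248). It was -0.39 without cKO 1 and -0.42 after median centring.

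Dll1 (ENSMUSG00000014773, chromosome 17, 15367354 to 15376872, minus strand) is a Delta ligand, known in human epidermis from basal cells. It had 27.7 and 34.6 CPM in cKO, against 56.8 and 46.5 CPM in Ctrl. These rest on 15 and 26 reads in cKO and on 53 and 29 reads in Ctrl, so the groups were separate but each value was imprecise. The log2 change was -0.71 ± 0.36 (SE), with a 95% interval of -1.47 to 0.039 (limma adjusted p = 0.379).

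Jag1 (ENSMUSG00000027276, chromosome 2, 137081456 to 137116644, minus strand) is the Jagged ligand of suprabasal cells and the hair follicle. It had 244 and 169 CPM in cKO, against 224 and 194 CPM in Ctrl, and the cKO libraries lay on either side of both Ctrl libraries. Its log2 change of -0.038 ± 0.24 (SE; limma adjusted p = 0.954) had a 95% interval of -0.53 to 0.45, which leaves room for a moderate difference in either direction. The sign was positive, at 0.17, after median centring.

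The ligands summed to 365 and 336 CPM in cKO, against 466 and 404 CPM in Ctrl, without overlap on the deposited scale. Of single genes, 34.1% had both cKO values under each Ctrl value on that scale. The TMM factors were 0.919 and 0.915 in cKO, against 1.07 and 1.11 in Ctrl. Scaled by them, the ligand sums overlap, so their separation depends on library scaling. Jag1 held 66.7% of ligand reads in cKO 1 (exact binomial 95% interval 59.6 to 73.2%) and 50.2% in cKO 2 (43.9 to 56.5%), against 48.0% in each Ctrl library. Jag2 held 25.8% in cKO 1 and 39.5% in cKO 2, against 39.8% and 40.5% in Ctrl. The ligand mix of cKO 2 was therefore near that of the Ctrl libraries, and the separate mix belonged to cKO 1. The basal markers lay lower in cKO as a sum, as given above, although 2 of the 6 overlapped. Their part in the Jag2 and Dll1 values was not tested.

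Lfng (ENSMUSG00000029570, chromosome 5, 140607320 to 140615545, plus strand) encodes Lunatic fringe, a Golgi enzyme that lengthens the O-fucose sugar on Notch and so tunes which ligand a receptor answers to. It had 73.8 and 87.8 CPM in cKO, from 40 and 66 reads, against 141 and 171 CPM in Ctrl, from 132 and 107 reads. Both cKO values lay well below both Ctrl values. The means were 80.8 ± 9.89 CPM in cKO and 156 ± 21.2 CPM in Ctrl (SD, n = 2 each). The log2 change of -0.94 ± 0.26 (SE; 95% interval -1.48 to -0.41) was the most negative of the members, and its adjusted p of 0.0937 (limma) was the smallest. Relative to the median of all genes the change was -0.70, and after median centring it was -0.73 (limma adjusted p = 0.235). Lfng ran from -0.68 to -1.08 over all settings tried. The exons of Lfng overlap those of no other annotated gene.

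Downstream of the receptors, neither nuclear nor target member separated the groups. Maml1 (ENSMUSG00000050567, chromosome 11, 50255634 to 50292311, minus strand), a Mastermind coactivator, had 44.3 and 43.9 CPM in cKO, against 49.3 and 43.3 CPM in Ctrl, and its log2 change was -0.065 ± 0.34 (SE; 95% interval -0.77 to 0.64; limma adjusted p = 0.945). The libraries were interleaved. Hes1 (ENSMUSG00000022528, chromosome 16, 30064384 to 30067796, plus strand), the transcriptional repressor that Notch switches on in spinous cells, had 125 and 104 CPM in cKO, against 114 and 154 CPM in Ctrl. Its log2 change was -0.21 ± 0.26 (SE; 95% interval -0.75 to 0.32; limma adjusted p = 0.755), close to the median of all genes. The signs of Maml1 and Hes1 differed between scalings, with Maml1 at 0.16 and Hes1 at 0.027 under edgeR with TMM.

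**Figure D3:**
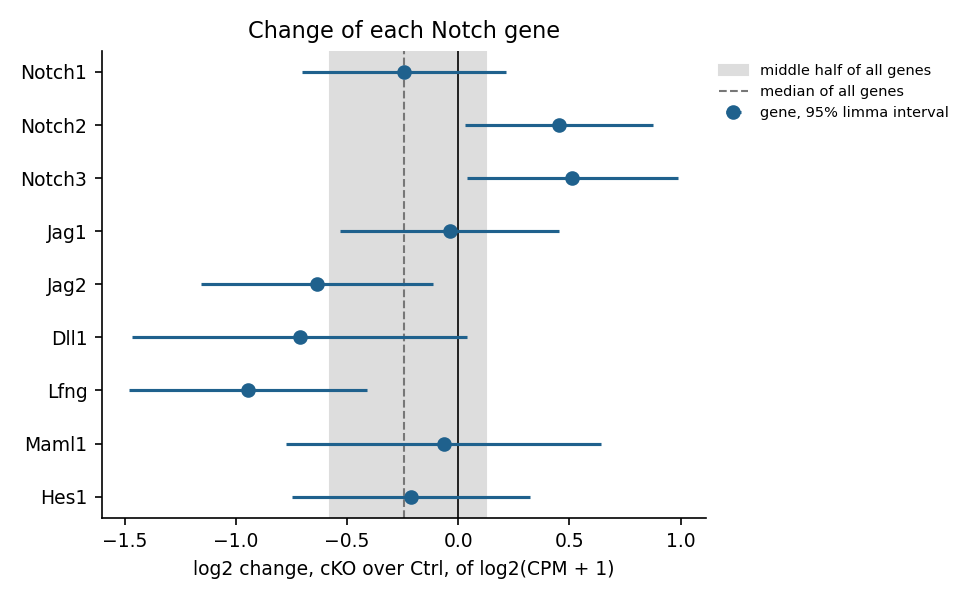
The log2 change (cKO over Ctrl, on the log2(CPM + 1) scale) of each measured Notch gene with its 95% limma interval, beside the median (dashed line, -0.245) and interquartile range (grey, -0.58 to 0.12) of all genes. Notch2 (0.45) and Notch3 (0.51) lie above the grey band, and Lfng (-0.94), Dll1 (-0.71) and Jag2 (-0.63) lie below it.

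Over the 9 members, the median log2 change was -0.21, against -0.245 over all 10327 genes. The range ran from -0.94 for Lfng to 0.51 for Notch3. Median centring, TMM and DESeq2's size factors each gave all 9 members a higher log2 change than the deposited scale. In edgeR with TMM, Notch2 stood at 0.69, Notch3 at 0.76, Jag2 at -0.37, Dll1 at -0.48 and Lfng at -0.69. The remaining members (Notch1, Jag1, Maml1 and Hes1) changed sign under at least 1 setting. Exons of 5 members (Notch1, Notch2, Notch3, Dll1 and Maml1) overlap another annotated gene, and reads there cannot be assigned with certainty. The overlap of Notch2 is with a gene on the same strand. The other 4 are with genes on the opposite strand, where the result depends on whether strand was used in counting, which the sources used here do not state.

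**Figure D4:**
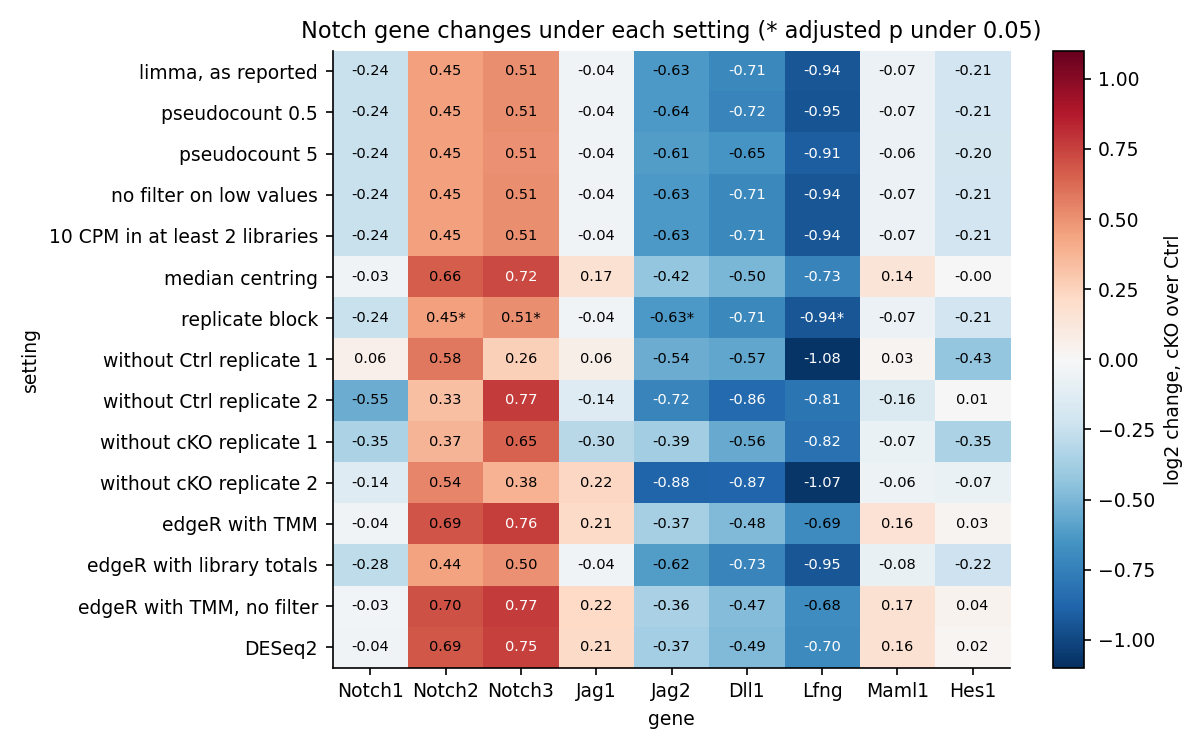
The log2 change (cKO over Ctrl) of each Notch gene (columns) under the reported limma fit and 14 other settings (rows), with stars at an adjusted p under 0.05. Stars stand only in the fit with the replicate number as a block, for Notch2, Notch3, Jag2 and Lfng.

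Levels were compared between the genes per kilobase of coding sequence. In cKO the order of the mean levels was Hes1 (135 CPM per kilobase), Notch2 (124), Notch1 (104), Lfng (71.2), Jag1 (56.4), Notch3 (46.5), Jag2 (30.3), Maml1 (14.4) and Dll1 (14.4). In Ctrl it was Hes1 (158 CPM per kilobase), Lfng (138), Notch1 (126), Notch2 (90.7), Jag1 (57.2), Jag2 (46.6), Notch3 (32.9), Dll1 (23.8) and Maml1 (15.1). In cKO 4 of the 8 pairs of neighbours had libraries that did not overlap. The overlapping neighbours there were Hes1 with Notch2, Lfng with Jag1, Jag1 with Notch3, and Maml1 with Dll1. In Ctrl 6 of 8 pairs did not overlap, the exceptions being Hes1 with Lfng and Lfng with Notch1. Lfng lay under Notch1 and Notch2 in each cKO library, whereas in Ctrl it lay over Notch2 in each library and over Notch1 in Ctrl 2 but not in Ctrl 1. Notch3 lay over Jag2 in each cKO library, at 42.2 and 50.9 against 25.1 and 35.5 CPM per kilobase. In Ctrl it lay under Jag2 in each library, at 27.1 and 38.7 against 49.5 and 43.7 CPM per kilobase.

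The remaining machinery of the pathway was read from a list of 76 further genes, of which 59 were in the table. None passed limma in either direction, and edgeR and DESeq2 also called 0. An unadjusted p under 0.05 (limma) was held by 5 of these 59 genes, against 1475 of all 10327 genes. Their median log2 change was -0.36, against -0.245 over all genes, and after median centring -0.15. For 27 of them (45.8%) each cKO value was under either Ctrl value, against 34.1% of all genes, and for 2 (3.39%) each was over, against 11.1% of all genes. Notch4 and Dll4, the receptor and ligand of endothelium, were not analysed here.

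The genes for receptor cleavage had the highest median of the role lists with more than 1 gene, 0.19 over 8 measured. Ncstn, the gamma-secretase subunit nicastrin, had 467 and 492 CPM in cKO, against 464 and 522 CPM in Ctrl, with a log2 change of -0.038. The range of the list was -0.68 to 0.55, so its members did not share a direction.

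The genes for receptor turnover had a median of -0.59 over 12 measured. Nedd4, a ubiquitin ligase and the most abundant gene of the list, had 854 and 783 CPM in cKO, against 1477 and 1230 CPM in Ctrl. Its groups lay apart, and the log2 change stood at -0.72 ± 0.20 (SE; limma adjusted p = 0.106). Dtx2, a Deltex ubiquitin ligase, had 92.2 and 90.4 CPM in cKO, against 70.7 and 103 CPM in Ctrl, and overlapped.

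The sugar-transfer enzymes other than Lfng had a median of -0.52 over 7 measured. Poglut1, which adds O-glucose to Notch, had 20.3 and 9.31 CPM in cKO, against 28.9 and 22.4 CPM in Ctrl, from 7 to 27 reads a library. Eogt, which adds O-linked N-acetylglucosamine to extracellular repeats, had 24.0 and 23.9 CPM in cKO, against 39.6 and 30.4 CPM in Ctrl. For both genes the cKO libraries were the lower ones, with limma adjusted p of 0.474 and 0.602.

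Ligand endocytosis, which pulls on the bound receptor, had a median of -0.31 over 6 measured genes. Mib1, the ubiquitin ligase for Notch ligands, had 60.9 and 51.9 CPM in cKO, against 105 and 60.9 CPM in Ctrl, where cKO 1 and Ctrl 2 were nearly equal. Dnm2, the endocytic GTPase dynamin 2, had 177 and 178 CPM in cKO, against 186 and 202 CPM in Ctrl (log2 change -0.13).

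In the nucleus, the other coactivators had a median of -0.21 over 9 measured and the corepressors one of -0.40 over 12. The acetyltransferases Ep300 and Crebbp had log2 changes of -0.0036 and -0.21. Hdac2, a histone deacetylase of corepressor complexes, had a log2 change of -0.11 with overlap.

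Of 9 further targets of the Hes, Hey and Nrarp kind 3 were in the table, all at few reads. Nrarp, a feedback inhibitor of the Notch complex, had 27.7 and 13.3 CPM in cKO, against 33.2 and 28.8 CPM in Ctrl (log2 change -0.66 ± 0.47, SE; limma adjusted p = 0.545). Heyl, a Hey-family repressor, had 14.8 and 6.65 CPM in cKO, against 12.9 and 12.8 CPM in Ctrl, with overlap. The non-canonical ligands Dlk1 and Dlk2, which lack the domain for activating Notch, were the other ligands in the table. Dlk1 had 3.69 and 1.33 CPM in cKO, against 34.3 and 4.81 CPM in Ctrl, so its log2 change of -2.11 ± 0.76 (SE; limma adjusted p = 0.197) leaned on the 32 reads of Ctrl 1. Ctrl 1 was also the library with the most Col1a1, and a link with the Dlk1 reads was not tested. Dlk2 had 8 and 9 reads in cKO, against 14 and 19 reads in Ctrl (log2 change -0.65 ± 0.53, SE).

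**Figure D5:**
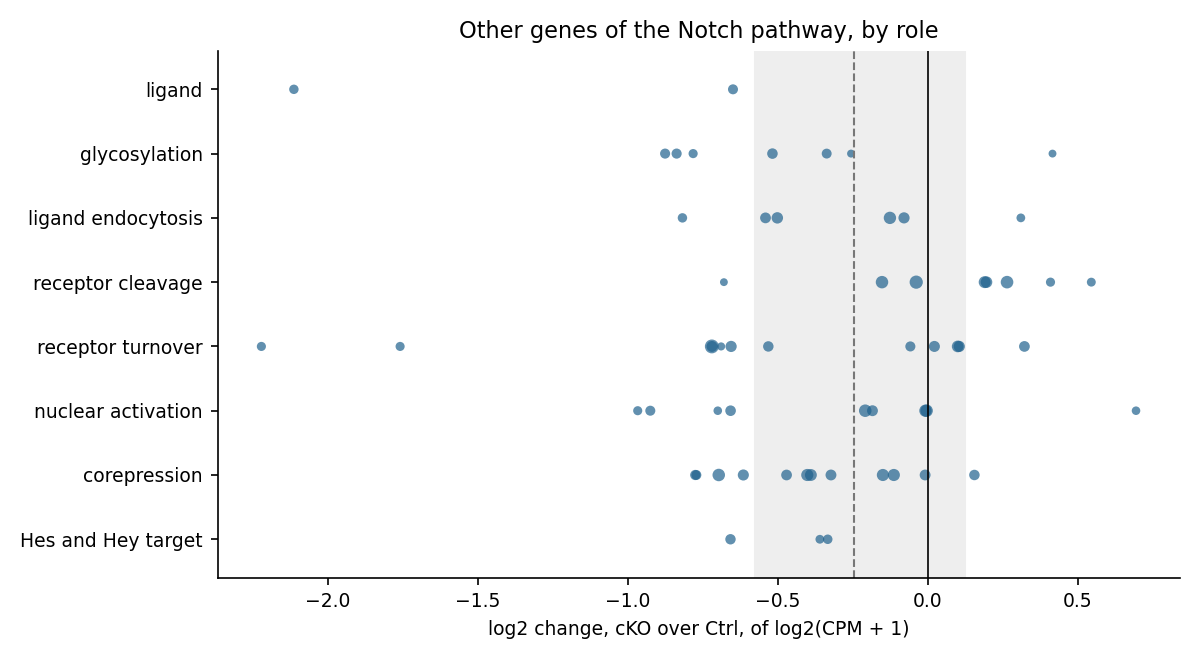
The log2 change (cKO over Ctrl, on the log2(CPM + 1) scale) of the 59 other Notch pathway genes in the table, by role, with larger points for more abundant genes, and the median (dashed, -0.245) and interquartile range (grey) of all genes. Receptor cleavage genes centre at 0.19 and receptor turnover genes at -0.59, and no gene passed the test.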

How the data were processed

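Ribosome profiling libraries of P0 epidermal keratinocytes, 2 per group, were analysed. Per the labels' protocols, lysates made with cycloheximide were digested with RNase I and fragments were size-selected on a gel; cycloheximide can itself shift ribosomes. Per the submitters' processing notes, fastp, HISAT2, HTSeq and the GRCm38 build were used, with no versions stated. The authors deposited CPM values, and each column summed to 1000000 over 10327 genes, none of them at 0 in any library. Genes at 0 in a library are therefore not analysed here. Columns headed WT were matched by number to the Ctrl labels. All values (100%, relative tolerance 1e-06) were whole multiples of 1 read, worth 1.84 and 1.33 CPM in cKO and 1.07 and 1.60 CPM in Ctrl.

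The main test was limma 3.58.1 in R 4.3.3 on log2(CPM + 1), with a trend of variance on abundance and only genotype in the model, for genes reaching 1 CPM in 2 libraries (all genes), with Benjamini-Hochberg adjustment over the whole table and calls at an adjusted p under 0.05. Such fold changes understate the change of low genes. Alternatives were edgeR 4.0.16 and DESeq2 1.42.0 on the recovered reads, other pseudocounts (0.5 and 5), filters, median centring, a replicate block and leaving out each library. The scripts were tested on simulated data. Shares and CPM carry exact Clopper-Pearson intervals from scipy 1.17.1. Symbols, exons and coding length (the longest coding sequence) came from GENCODE M21, matching 10323 genes.

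The members and lists were chosen with earlier results of these data known. Besides the members, the text names Mettl14, the 2 most abundant genes of each pathway role and epidermal layer, any called pathway gene, and the 3 genes closest in pattern to the most abundant receptor, ligand and nuclear member. Col1a1, Cspg4, Notch4, Dll4, Dtx3 and Fbxw7 were added once values had been seen. Some genes that the rule names are not reported here.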

Additional observations from a re-analysis of the deposited data

How the results depend on the processing

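No member passed under any alternative except the replicate block, where limma called 2 members higher (Notch2, adjusted p = 0.0388, and Notch3, 0.0415) and 2 lower (Jag2, 0.0358, and Lfng, 0.00173), and 4 other pathway genes lower, with Dlk1, Dtx3 and Nedd4 among them. No label pairs equally numbered libraries. Their deviations from the group means correlated at 0.195 over all genes, and 2 pairs are too few to show a pairing. With 1 library left out, 0 to 1 pathway genes were lower (Dlk1 without Ctrl replicate 2).

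Over all genes, 38 were called higher and 31 lower, with 105 and 8 after median centring, 14 and 9 with at least 10 CPM in 2 libraries, 257 and 582 with the block, 89 and 2 in edgeR with TMM, 10 and 2 with library totals, 163 and 13 without a filter, and 83 and 4 in DESeq2. With 1 library left out, 0 to 104 were higher and 0 to 44 lower, with 0 and 0 without either cKO library (an arm of 1 library is assumed to vary like the others). Over the whole table the middle log2 change (median) lay at -0.245 on the deposited scale, at -0.037 once centred and at 0.0026 under TMM; the cause was not tested beyond that shift.

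Signs turned for 4 members, none of them called. Jag1 was 0.17 after centring, 0.21 and 0.22 in edgeR with TMM (filtered and not) and 0.21 in DESeq2; Maml1 was 0.14, 0.16, 0.17 and 0.16; Hes1 was 0.027, 0.038 and 0.023 in the last 3. With 1 library left out, Notch1 ran from -0.55 to 0.060, Jag1 from -0.30 to 0.22, Maml1 from -0.16 to 0.027 and Hes1 from -0.43 to 0.0067. Depth limits Dll1 and Maml1, which had 15 to 53 reads a library.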

Other observations

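The likeness of a pattern was measured as the root mean square distance of log2(CPM + 1) over the 4 libraries after centring each gene on its own mean, among 5163 genes at or above the median abundance. Among the genes closest to Notch1 were Arl4c (distance 0.026) and Golga3 (0.028), those closest to Jag1 were Pbrm1 (0.028), Psap (0.034) and Bmpr2 (0.037), and those closest to Maml1 were Lrp1 (0.015), Trip12 (0.020) and Ero1l (0.024). Within a distance of 0.1 there were 101 genes for Notch1, 102 for Jag1 and 227 for Maml1, so with 4 libraries such nearness is common.

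Reads of single receptors were also set against those of 1 ligand, Jag2, in each library. There were 10.3 and 6.53 Notch2 reads per Jag2 read in cKO, against 3.94 and 3.76 in Ctrl, without overlap. Since Notch2 was higher and Jag2 lower in both cKO libraries, this ratio had to separate the groups and adds nothing to those values. For Notch1, which was not separate by itself, there were 9 and 5.52 reads per Jag2 read in cKO, against 6.21 and 4.63 in Ctrl, with overlap. These ratios do not depend on library scaling, but in both of them cKO 1 and cKO 2 differed from each other more than the Ctrl libraries did. They concern Jag2 and not the ligands together, and the differences were not tested.

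Of the pathway genes with the most negative log2 changes, Dtx3 had 2 and 1 reads in cKO, against 11 and 11 reads in Ctrl (log2 change -2.22 ± 0.66, SE; limma adjusted p = 0.121). Fbxw7, the ubiquitin ligase subunit that ends the life of the Notch intracellular domain, had 1 and 4 reads in cKO, against 13 and 8 reads in Ctrl (log2 change -1.76 ± 0.65, SE; limma adjusted p = 0.210). Neither passed over all genes.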
